A study of Mus musculus with 2 samples.

Results

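The Trim genes encode tripartite motif proteins, a family of mostly RING-type ubiquitin ligases. They were taken as the protein-coding genes of GENCODE release M21 on chromosomes 1 to 19 (mouse assembly mm10) whose symbol is Trim followed by a number. This rule found 68 genes among 20780 coding genes on these chromosomes. The data are ChIP-seq of histone H3 trimethylated at lysine 36 (H3K36me3) in bone marrow-derived macrophages (BMDM) of the C57BL/6J mouse strain, grown without any stimulus. There was 1 group with 2 biological replicates, and no treated group. Each library was made from 10 ng of DNA in a size range of 350 to 480 bp; sex and age were not collected. Both biosamples come under the same donor record, so the spread between the replicates may be technical.

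A tripartite motif protein joins a RING finger, which recruits a ubiquitin-charged E2 enzyme, to B-box zinc fingers and a coiled coil. A variable C-terminal domain, often the B30.2 (PRY-SPRY) fold, chooses the target. Many members act in innate immunity: they sense viral capsids or antibody-coated particles, or place ubiquitin chains on RIG-I, MAVS, STING and IRF proteins, and a subset of them is induced by interferon. H3K36me3 is laid down behind elongating RNA polymerase II and marks the body of transcribed genes, usually more towards the 3′ end. The question put to these data is which Trim genes carried the mark before any stimulus, and where along each gene it lay.

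The measure was the percent of the annotated gene body, start to end, that lay under deposited peaks, in each replicate. A gene was called marked when at least 20% of its body was covered in both. Values given in pairs are those of replicate 1 and then replicate 2 unless stated otherwise. Replicate 1 had 32098 peaks over 28.5 Mb and replicate 2 had 58505 peaks over 79.4 Mb. The peak lists hold no read counts, so depth is unknown, and a gene without a peak was not detected rather than shown to be without the mark. In a bulk sample, fewer cells carrying the mark and less of it per cell cannot be told apart. Of 12 macrophage markers, 7 were marked and 11 reached 20% in replicate 2 (58.3% and 91.7%, against 8.03% and 24.6% of all coding genes). Of 25 markers of T cells, B cells, neutrophils, fibroblasts and erythroid cells, 0 were marked and 24 had no peak (96.0%). Of all coding genes, 59.8% had no peak. The exception among the 25 markers was the erythroid membrane gene Epb42, at 0.975% in replicate 1 and 2.75% in replicate 2.

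Before the values, promoter sequences of interferon-induced members are shown, because an interferon response element is a sequence feature that some of them hold and that the ChIP data do not use. Interferon acts through the interferon-stimulated response element, bound by IRF proteins. Its core was searched as GAAA, then any 2 bases, then GAAA, and for the other strand as TTTC, any 2 bases and TTTC, in RefSeq promoter windows of build GRCm38.p6 running from 250 bases before to 50 bases after each start. Overlapping matches were counted separately, and no other motif was searched. Each line gives 30 bases around the match, 5′ to 3′ on the strand of the gene, with the matching letters in capitals.
Trim30a: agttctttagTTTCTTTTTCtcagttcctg
Trim30d: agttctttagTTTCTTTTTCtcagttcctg
Trim30c: agttctgtggTTCCTTTTTCtcagttccac
Trim5: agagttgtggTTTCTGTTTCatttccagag
Trim12a: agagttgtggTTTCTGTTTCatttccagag
Trim12c: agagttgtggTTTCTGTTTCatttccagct
Trim34a: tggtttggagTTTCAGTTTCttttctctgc
Trim21: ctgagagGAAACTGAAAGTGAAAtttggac
Trim26: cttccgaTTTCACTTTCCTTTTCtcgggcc
These stretches lie at chr7:104465210-104465239 (minus strand) for Trim30a, chr7:104507871-104507900 (minus) for Trim30d and chr7:104400896-104400925 (minus) for Trim30c. The Trim5 stretch is at chr7:104288136-104288165 (minus), that of Trim12a at chr7:104315466-104315495 (minus) and that of Trim12c at chr7:104353359-104353388 (minus). The Trim34a stretch is at chr7:104244457-104244486 (plus), that of Trim21 at chr7:102565447-102565476 (minus) and that of Trim26 at chr17:36836979-36837008 (plus).

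The stretches of Trim30a and Trim30d are identical, with 0 differences, and so are those of Trim5 and Trim12a. Trim12c differs from Trim5 at 2 positions, A29C and G30T, counted from 1 at the 5′ end of the stretch, both outside the capitals. Trim30c is shown as the aligned stretch and holds no match: against Trim30a it has 5 differences, T7G, A9G, T13C, T29A and G30C, of which T13C falls among the capitals. Trim21 and Trim26 each hold 2 overlapping matches. The longer context of the match is shown for 1 cluster gene and 1 gene outside the cluster, as the 250 bases before the RefSeq start, with matches in capitals: Trim30d at chr7:104507850-104508099 (minus) and Trim26 at chr17:36836896-36837145 (plus).
Trim30d: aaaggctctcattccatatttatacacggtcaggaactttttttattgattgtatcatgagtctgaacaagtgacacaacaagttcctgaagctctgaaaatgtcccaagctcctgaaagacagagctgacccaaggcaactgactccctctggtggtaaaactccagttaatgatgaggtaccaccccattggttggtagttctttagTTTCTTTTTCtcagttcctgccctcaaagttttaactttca
Trim26: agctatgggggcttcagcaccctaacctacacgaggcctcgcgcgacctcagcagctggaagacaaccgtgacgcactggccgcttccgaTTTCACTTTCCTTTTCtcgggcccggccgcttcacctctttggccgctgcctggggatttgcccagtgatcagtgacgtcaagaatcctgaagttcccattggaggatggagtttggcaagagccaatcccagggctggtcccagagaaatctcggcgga

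A window was found for 53 of the 68 Trim genes, and 9 of the 53 (17.0%) held a match, against 1079 of 27025 genes in the whole table (3.99%). The cluster on chromosome 7 held a match in 6 of 10 genes, the other interferon-induced members in 2 of 5 (Trim21 and Trim26), and the remaining Trim genes in 1 of 38 (Trim2). The cluster genes without these letters in the window were Trim6, Trim30b, Trim30c and Trim34b. Some windows lay far from the annotated gene start: 11238 bases for Trim30b, 12628 for Trim38 and 94039 for the matching window of Trim2. No window was found for Trim3, Trim8, Trim11, Trim14, Trim16, Trim17, Trim29, Trim33, Trim35, Trim36, Trim43b, Trim43c, Trim50, Trim55 and Trim65. A match is a description of letters and does not show that a factor binds there.

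H3K36me3 in resting macrophages covered a minority of the family. Of the 68 Trim genes, 6 were marked (8.82%), namely Trim21, Trim25, Trim56, Trim30d, Trim65 and Trim27, against 8.03% of all coding genes. The share with at least 20% covered was 6 of 68 in replicate 1, against 8.06% of all coding genes, and 19 of 68 in replicate 2 (27.9%), against 24.6%. No peak in either replicate was seen for 38 Trim genes (55.9%), against 59.8% of all coding genes. The family as a whole was therefore near the background on each of these counts, and its median coverage was 0% in both replicates, as was that of all coding genes. Gene length was close as well, with a median of 17.1 kb for Trim genes and 17.6 kb for all coding genes.

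Within the family the known interferon-induced members and the others had different counts. Of the 16 interferon-induced genes, 4 were marked (25.0%), 9 reached 20% in replicate 2 (56.3%) and 3 had no peak. The cluster on chromosome 7 had 1 of 10 genes marked, near the 8.03% of all coding genes. In replicate 2, 4 of these 10 reached 20% (against 24.6% of all coding genes), and 2 had no peak (against 59.8%). Of the 6 interferon-induced genes outside the cluster, 3 were marked, 5 reached 20% in replicate 2 and 1 had no peak. Of the 52 remaining genes, 2 were marked (3.85%), 10 reached 20% in replicate 2 (19.2%) and 35 had no peak (67.3%). Median coverage was 11.9% in replicate 1 and 26.6% in replicate 2 for the interferon-induced genes, and 0% in both for the remaining genes. With 1 group of samples and members that share sequence, no test of this difference was made. All 30 Trim genes with a peak had more of their body covered in replicate 2, the replicate with more peaks.

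**Figure D1:**
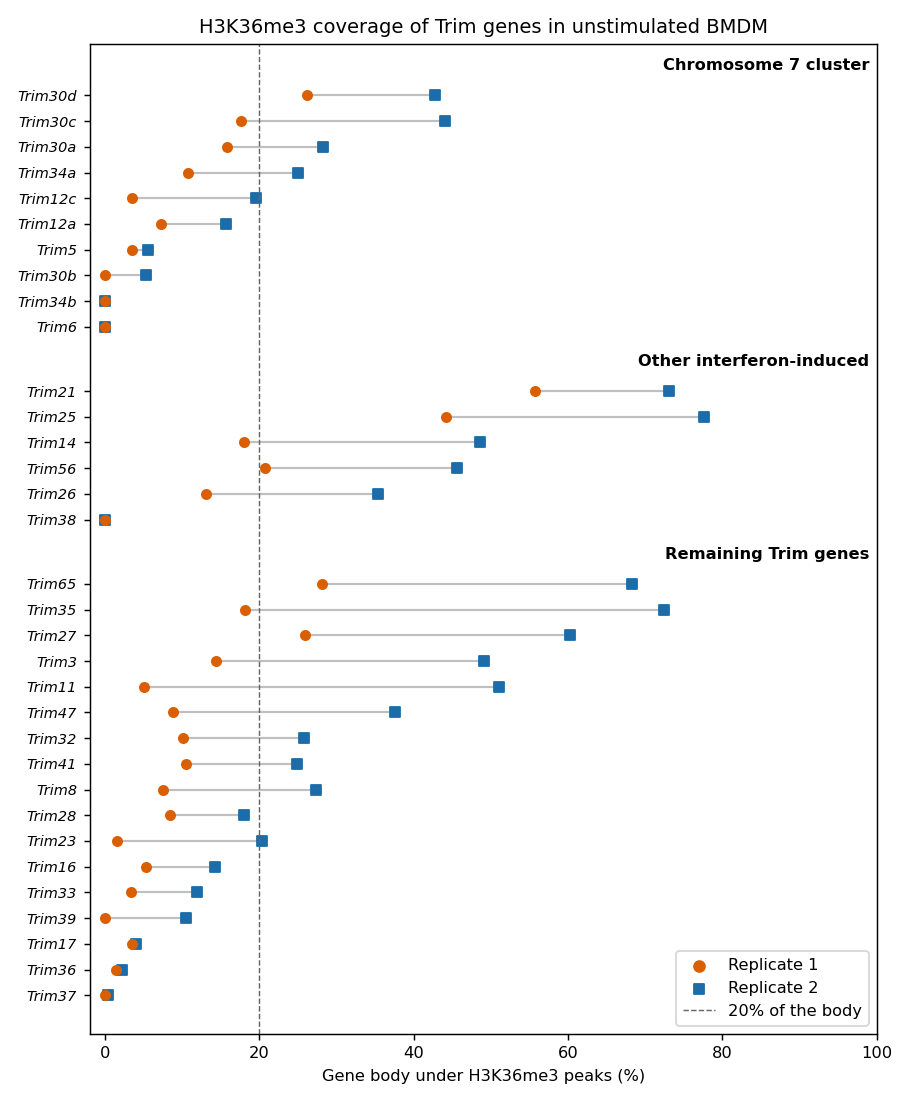
Percent of the gene body under H3K36me3 peaks (x axis) in replicate 1 (circles) and replicate 2 (squares), for the 16 interferon-induced Trim genes and the 17 remaining Trim genes with a peak. Trim21 and Trim25 stand furthest to the right among the interferon-induced genes in both replicates, 6 genes lie beyond the 20% line (dashed) in both, and every gene with a peak is further right in replicate 2.

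By the mean of the replicates and in replicate 1, the highest coverage in the family was that of Trim21, the cytosolic antibody receptor, on chr7:102557921-102565486. Its body was covered to 55.7% in replicate 1 and 73.1% in replicate 2, which ranks 45 and 269 among all 20780 coding genes. In replicate 2 this was a single peak of 5.53 kb over a gene of 7.57 kb. Trim25, the ligase that ubiquitinates RIG-I, on chr11:88999376-89020293, was covered to 44.1% and 77.6% in replicates 1 and 2, and was the higher of both genes in replicate 2. These 2 genes were among the most widely covered coding genes by the mean of the replicates, at rank 75 for Trim21 and rank 134 for Trim25. Wide coverage did not go with high enrichment in Trim21 in replicate 1. Its highest peak there had an enrichment of 3.52 (−log10 q 4.72), against a median of 3.22 over peaks in all coding genes. With only peaks of a −log10 q of at least 5, neither gene was marked.

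The other interferon-induced genes outside the cluster were covered less. Trim56, which acts in STING and TLR3 signalling (chr5:137105644-137116209), was covered to 20.8% in replicate 1 and 45.6% in replicate 2; counting only 32-base words found once in the genome, replicate 1 gives 19.9%, below the limit. Trim14, a MAVS adaptor without a RING finger (chr4:46493781-46536141), was covered to 18.0% and 48.6%, just short of the limit in replicate 1. A share of 23.3% of its body is shared with the neighbouring coding gene Nans, and its own bases alone were covered to 23.4% and 51.1%. Trim26, which acts on IRF3 (chr17:36837134-36859398), was covered to 13.1% and 35.4%. Trim38, a negative regulator of Toll-like receptor signalling, had no peak in either replicate, so this group of 6 runs from no peak to the top of the family.

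The cluster on chromosome 7 holds 10 Trim genes within chr7:104218793-104507849, a stretch of 289 kb. It contains the mouse relatives of Trim5, which in primates restricts retroviral capsids. The Trim30 genes lie at its far end, and Trim30a is known in mice to promote loss of TAB2 and TAB3. Trim30d was covered to 26.2% in replicate 1 and 42.7% in replicate 2, and was the only cluster gene marked. Of its exon bases alone 8.70% were covered in replicate 1, so this call ends on exons, where Trim30c is the marked cluster gene. Trim30c was covered to 17.6% and 44.1%, and Trim30a to 15.8% and 28.2%. All 3 reached 20% in replicate 2, as did Trim34a, at 10.8% and 25.0%.

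The other cluster members were covered less. Trim12c, which is known in mice to act with TRAF6 in interferon and NF-κB induction, was covered to 3.50% in replicate 1 and 19.6% in replicate 2, and Trim12a to 7.26% and 15.6%. Trim5 was covered to 3.52% and 5.61%. Trim30b had 0% in replicate 1 and 5.32% in replicate 2, and Trim34b and Trim6, which in human cells builds free ubiquitin chains that activate IKKε, had no peak. Replicate 1 left 3 of the 10 genes without a peak and replicate 2 left 2, and median coverage was 5.39% and 17.6%.

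The peaks of this interval lay almost wholly in the Trim genes. Replicate 1 had 23 peaks over 26.5 kb (9.17% of the interval), with 100% of the covered bases inside Trim bodies. Replicate 2 had 40 peaks over 53.8 kb (18.6%), with 97.1% inside Trim bodies, which make up 77.4% of the interval. The interval itself held no other coding gene. The 31 other coding genes in the 300 kb on each side, 25 of them olfactory receptor genes, had no peak. The nearest peak on the left was 1655 kb away in both replicates, in Trim21 itself, and the nearest on the right was 872 kb away in replicate 1 and 870 kb in replicate 2, in Fam160a2. The cluster thus stood as an island of peaks in a region with none.

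**Figure D2:**
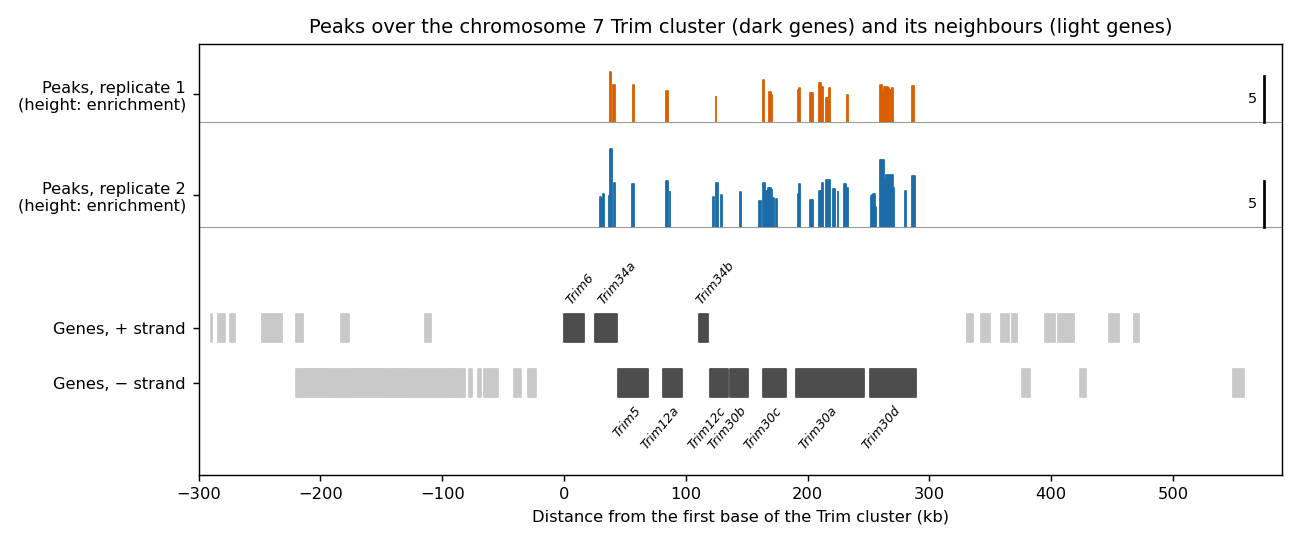
Peaks of replicate 1 and replicate 2 (bar height: the authors' enrichment ratio, scale bar 5) over the cluster and 300 kb on each side, with Trim genes dark and other coding genes light on each strand, against distance from the first base of the cluster in kb. All peaks drawn fall within the 289 kb of the cluster, with 100% of covered bases inside Trim genes in replicate 1 and 97.1% in replicate 2, and the light genes carry none.

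The strongest peak in the cluster, by the authors' enrichment over their background, lay in Trim34a. It reached 5.42 in replicate 1 (chr7:104256593-104257419) and 8.51 in replicate 2 (chr7:104256537-104257917). In Trim30d the highest value in replicate 2 was 7.29 (chr7:104478187-104481228). In Trim56 and Trim65 it was 6.95 each in replicate 2, and in Trim14 6.43 over a peak of 6.08 kb. The Trim65 peak (chr11:116122029-116128370) also lies in the overlapping gene Trim47 and is the highest peak of that gene too. The enrichment of Trim peaks was close to that of all peaks in coding genes: the median was 3.39 over 78 Trim peaks against 3.22 over 31476 peaks in replicate 1, and 3.99 over 124 against 3.93 over 56886 in replicate 2.

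The cluster genes arose by duplication, and their sequence is repetitive, which bears on where short reads can be placed. The share of 32-base words that occur once in the genome was a median of 57.4% in the cluster (33.9% to 89.0%), against 94.6% in the remaining Trim genes (26.1% to 99.8%). In the other interferon-induced genes the share ran from 78.6% to 97.7%. Trim34b shared 55.3% of its words with Trim34a and was 37.9% unique. Trim12c shared 36.8% with Trim5, and Trim12a 27.1% with Trim5. Trim30a and Trim30d, each 57.4% unique, shared 9.45% and 13.0% of their words with each other, their closest partner. In these 2 genes that sharing thus covers a minority of the repeated words. Trim6 shared 2.35% with Trim30a, its closest partner, and was 83.1% unique. The missing peaks of Trim34b and Trim6 thus stand in 1 gene of largely repeated and 1 gene of largely unique sequence.

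Coverage was higher in the unique words than in the repeated ones in every cluster gene with a peak, 7 of 7 in replicate 1 and 8 of 8 in replicate 2. In Trim30d it was 40.4% of unique and 7.13% of repeated words in replicate 1, and 64.3% and 13.5% in replicate 2. In Trim30a it was 26.1% and 1.86% in replicate 1, and 44.6% and 6.20% in replicate 2. The same direction held in 18 of 20 other Trim genes in replicate 1 and 17 of 22 in replicate 2, so it was not limited to the cluster. Counting unique words only, a measure chosen after seeing the data, Trim30a joined Trim30d as marked, which made 2 of 10 in the cluster, while outside it Trim14 was gained and Trim56 lost. How the authors' alignment treated reads with several placements is not given in the sources used here, and its part in these values was not tested.

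**Figure D3:**
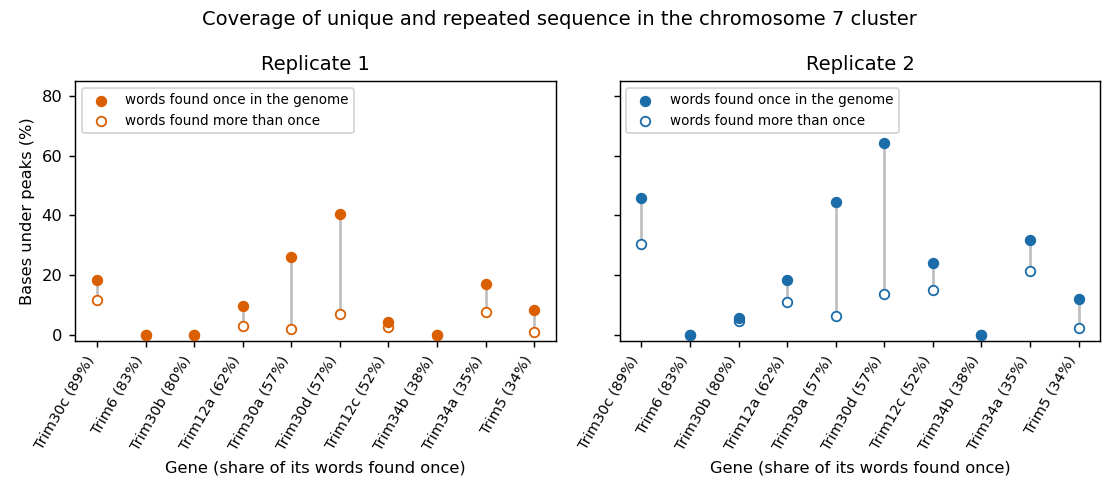
Percent of bases under peaks (y axis) in the 32-base words found once in the genome (filled) and more than once (open), for the 10 cluster genes ordered by the share of words found once (in brackets), in replicate 1 (left) and replicate 2 (right). The gap is widest for Trim30d, at 64.3% and 13.5% in replicate 2, and Trim6 and Trim34b lie at 0 in both.

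Among the 8 interferon-induced genes whose promoter window held the response element letters, 0 were without a peak in both replicates, and among the 7 whose window held none, 3 were (Trim6, Trim34b and Trim38). The windows of Trim38 and Trim30b lay 12628 and 11238 bases from the start of the measured gene body, so they may not describe its promoter. Several genes with a match are cluster copies with the same or nearly the same stretch. A link between match and mark was not tested. Marked genes were 2 of the 8 with a match (Trim21 and Trim30d) and 2 of the 7 without (Trim25 and Trim56). Trim30d and Trim30a share the identical stretch shown above and were covered to 26.2% and 15.8% in replicate 1. Trim5 and Trim12a, also identical there, were covered to 3.52% and 7.26% in replicate 1 and to 5.61% and 15.6% in replicate 2.

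Of the remaining Trim genes, both marked ones have a B30.2 domain, and several genes of this type are known in antiviral or inflammatory signalling. Trim65, an activator of MDA5 (chr11:116121846-116131128), was covered to 28.1% in replicate 1 and 68.3% in replicate 2. It overlaps Trim47 over 57.8% of its body, and its own bases alone were covered to 18.6% and 29.6%, below the limit in replicate 1. Trim27, which inhibits IKK family kinases (chr13:21179445-21194724), was covered to 25.9% and 60.2%, and to 14.4% and 43.3% of its exon bases, below the limit in replicate 1. Trim35, which acts on IRF7, was covered to 18.1% and 72.4%, the largest gap between the replicates in the family, at 54.3 percentage points. Next to it came Trim11, which acts in protein quality control, at 5.01% and 51.0%. Trim35 was the gene just under the limit in replicate 1 and Trim56 the one just above it.

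Further members of this type had less. Trim47 was covered to 8.77% in replicate 1 and 37.6% in replicate 2, but to 0% and 17.9% outside the bases it shares with Trim65. Trim41, which in human cells acts against influenza nucleoprotein, was covered to 10.5% and 24.9%, and Trim39, a ligase for MOAP1, to 0% and 10.5%, though to 27.3% in the authors' pooled list. Trim17 was covered to 3.45% and 4.01%, by 1 peak in each replicate at different places. They were chr11:58969760-58970395 in replicate 1 (−log10 q 1.04) and chr11:58957247-58957984 in replicate 2 (−log10 q 3.97). Of the 16 genes of this type, 2 were marked, 6 reached 20% in replicate 2 and 8 had no peak.

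The NHL-domain members were split. Trim3, a regulator of TLR3 signalling in macrophages, was covered to 14.3% and 49.1%, and Trim32, a ligase mutated in a human muscular dystrophy, to 10.1% and 25.8%. Trim32 lies wholly inside the body of Astn2, so its peaks cannot be assigned to 1 of the 2 genes by position alone. Trim71, a regulator of stem cells, and Trim2 had no peak. Among the TIF1-type corepressors, Trim28 (KAP1), the partner of KRAB zinc finger proteins, was covered to 8.40% and 18.0%, Trim33 (TIF1γ), which acts on SMAD4, to 3.31% and 12.0%, and Trim24 and Trim66 to 0%. The low Trim28 values go with a long annotated record: its body is 31.9 kb, whereas its principal transcript spans 6.88 kb, and that span was covered to 32.8% and 62.7%, a measure chosen after seeing the data.

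The other remaining members with peaks had little coverage in replicate 1. Trim8, which acts on TAK1, was covered to 7.53% and 27.4%. Trim23, which carries an ARF GTPase domain, was covered to 1.57% and 20.3%, the value just above the limit in replicate 2, where Trim12c at 19.6% was just below it. Trim16, which acts in the clearance of damaged lysosomes, was covered to 5.26% and 14.2%, Trim36 to 1.42% and 2.14%, and Trim37, mutated in human mulibrey nanism, to 0% and 0.396%.

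The 35 remaining genes with no peak include those known from other tissues. They are the muscle genes Trim54, Trim55, Trim63 and Trim72, the neuronal genes Trim9, Trim46 and Trim67, the erythroid genes Trim10 and Trim58, and the early embryo genes Trim43a, Trim43b and Trim43c. The others are Trim2, Trim7, Trim13, Trim15, Trim24, Trim29, Trim31, Trim40, Trim42, Trim44, Trim45, Trim50, Trim52, Trim59, Trim60, Trim61, Trim62, Trim66, Trim68, Trim69, Trim71, Trim75 and Trim80. Of these, Trim24 and Trim44 had peaks in the authors' combined lists. Among the 8 genes with a COS box, which binds microtubules, 7 had no peak (87.5%, against 59.8% of all coding genes). Of the 11 genes listed as germline genes or copies in other gene clusters, all 11 had none. Their median length was 8.53 kb, and of all coding genes of 5 to 10 kb 69.0% had no peak. Of the words of Trim43b, Trim43a and Trim43c, 26.1%, 29.4% and 34.2% occur once in the genome, so most of their sequence is repeated.

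Along the gene body the mean coverage of the 6 marked Trim genes is a description of few genes with no test. It was highest in bin 6 of 10, at 56.0% in replicate 1 and 91.5% in replicate 2, while the 1594 marked coding genes of at least 5 kb were covered most in bin 8, at 48.4% and 81.0%. In replicate 1, bins 8 and 9 were close to bin 6, at 53.2% and 51.6%. The 4 marked interferon-induced genes were covered most in bin 8 in replicate 1 (65.1%) and bin 6 in replicate 2 (87.2%). The 2 remaining marked genes were covered most in bin 9 in replicate 1 (66.3%) and to 100% in bins 4, 6, 7 and 9 in replicate 2. In the last bin, coverage was 13.1% and 48.9% in the marked Trim genes, against 36.8% and 69.0% in all marked coding genes. In the first bin it was 8.73% and 15.6%, against 1.15% and 4.24%. The first bin of Trim30d was covered to 52.4% and 66.1%, so the mean over 6 genes rests largely on it. Trim56 had its peaks in the first part of the gene and none in bins 7 to 10 in replicate 1, while Trim26 had them in the last part.

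**Figure D4:**
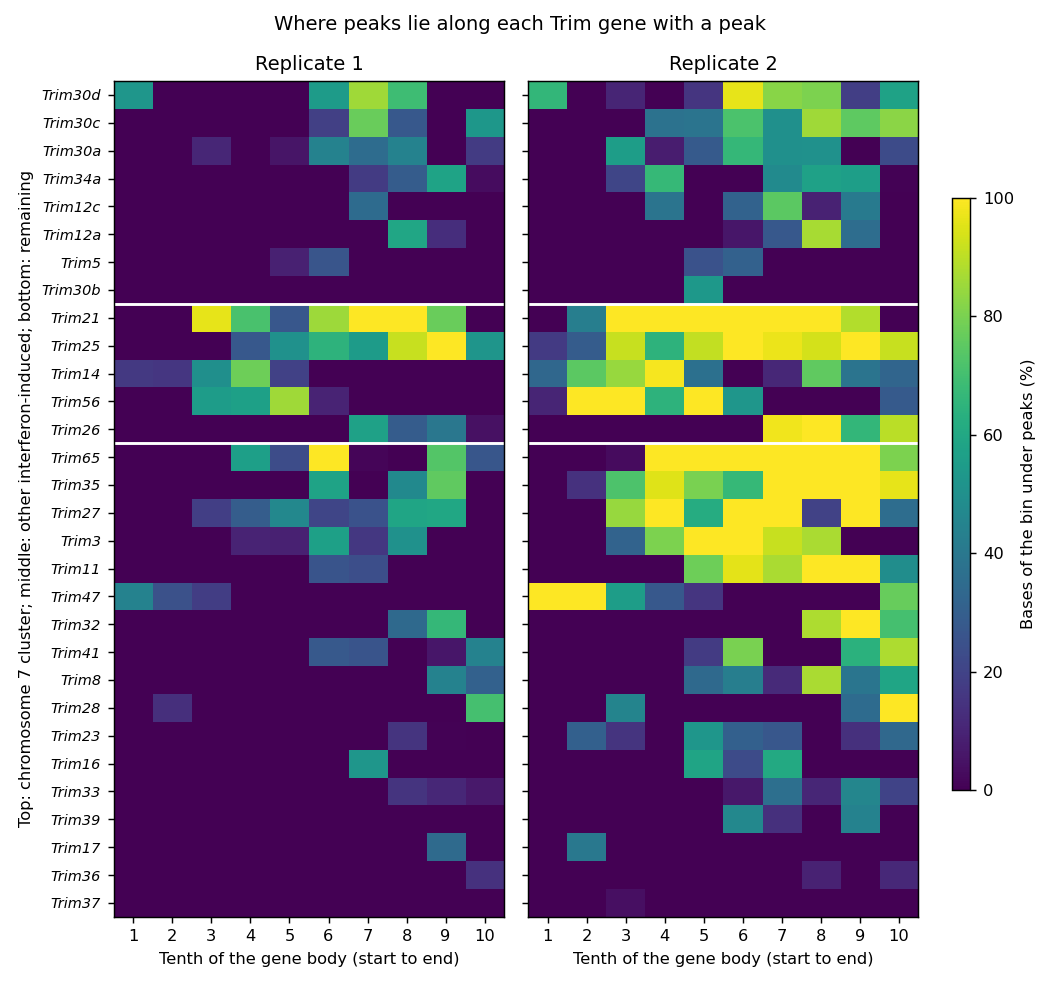
Percent of bases under peaks (colour) in each of 10 bins along the body, from start (1) to end (10), for the 30 Trim genes with a peak in replicate 1 (left) and replicate 2 (right), with white lines between the cluster, the other interferon-induced and the remaining genes. Trim30d alone of the cluster has coverage in its first bin, and Trim21 and Trim25 are covered over most of their length in replicate 2.

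The median coverage of exons was above that of introns in both replicates, while the count of genes with higher exons differed between them. Over the 30 Trim genes with a peak, the median was 9.30% of exon and 6.46% of intron bases in replicate 1, with exons higher in 14 of 30, and 40.8% and 22.7% in replicate 2, with exons higher in 20 of 30. The 8304 coding genes with a peak and with intron bases had medians of 10.8% and 4.61% in replicate 1 and 41.3% and 22.6% in replicate 2. Exons were higher in 4441 and 6208 of these 8304. Trim32, which has its coding sequence in a single exon, had 35.1% of exon and 0% of intron bases covered in replicate 1, and 86.1% and 1.57% in replicate 2. In Trim30d the order changed with the replicate: 8.70% of exon and 28.1% of intron bases were covered in replicate 1, and 55.7% and 41.3% in replicate 2.

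The replicates ordered the genes alike. Over the 30 Trim genes with a peak, Pearson's r between replicate 1 and replicate 2 was 0.842 and Spearman's rho 0.879, as a description, since the genes share libraries and were chosen for having a peak. Against gene length, mean coverage had r = −0.396 and rho = −0.347.

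Among the genes that Trim proteins work with, the lists differed. Of 14 antiviral signalling targets with a record, 8 were marked (57.1%) and all 14 reached 20% in replicate 2, against 8.03% and 24.6% of all coding genes. Their medians were 21.5% in replicate 1 and 52.3% in replicate 2. Ddx58 (RIG-I, the target of Trim25) was covered to 49.8% and 77.4%, Tbk1 to 43.6% and 71.0%, Rnf135 (Riplet, another RIG-I ligase) to 34.1% and 63.0%, and Ifih1 (MDA5, the target of Trim65) to 29.4% and 66.4%. Tab2, the target of Trim30a, was covered to 10.4% and 24.4%. Of 12 E2 enzymes, 1 was marked (8.33%, near the 8.03% of all coding genes), Ube2l6, the interferon-induced ISG15 conjugating enzyme, at 44.2% and 65.3%. In replicate 2, 4 of the 12 reached 20% (33.3%, against 24.6% of all coding genes). Of 7 family members without a Trim symbol, 1 was marked (14.3%), Pml, the organiser of nuclear bodies, at 25.2% and 54.7%. No peak was seen for 5 of the 7 (71.4%, against 59.8% of all coding genes).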

How the data were processed

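H3K36me3 ChIP-seq of unstimulated macrophages gave 1 peak list per biological replicate, a pooled list and a replicated list, all in mm10 per the labels. Neither aligner nor caller is given in the sources used here. In each list the deposited enrichment is a ratio over the authors' background, −log10 p and −log10 q come from the authors' caller, and the deposited score is a display value that was not used. The lists hold no read counts. A control experiment named in the labels was not analysed here.

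Overlapping peaks were merged within a list, and the percent of each GENCODE M21 gene body under peaks was computed for all 20780 coding genes (longest record per symbol). Every member is named, with values in both replicates where it had a peak or belongs to an interferon-induced group. The members and lists were chosen with earlier results of these data known. With 1 group there is no comparison between samples and no test was made; shares of all coding genes stand in for a test and are given at the first count of Trim genes of each kind. Sequences are RefSeq, GRCm38.p6, and 32-base words were counted on both strands over chromosomes 1 to 19, X and Y of that assembly. Unplaced sequence was not counted, so once in the genome means once on these chromosomes. Coverage code was tested on simulated peaks. Python 3.11.15, numpy 2.4.6, scipy 1.17.1 and matplotlib 3.10.9 were used.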

Additional observations from a re-analysis of the deposited data

How the results depend on the processing

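Of 68 Trim genes, 6 were marked (8.82%, against 8.03% of all coding genes). They were 1 in the cluster, 3 among the other interferon-induced genes and 2 among the remaining genes. Asking 10% in both replicates gave 15 (4, 5 and 6), against 16.0% of all coding genes, and 50% gave 1 (Trim21; 0 in the cluster, 1 among the other interferon-induced and 0 among the remaining), against 0.433%. Peaks with a −log10 q of at least 5 left 1 (Trim30d), with 0 other interferon-induced and 0 remaining genes, where 1.52% of all coding genes were marked. With replicate 1 alone the counts were 6 for the family, 1 for the cluster, 3 for the other interferon-induced and 2 for the remaining genes, against 8.06% of all coding genes. With replicate 2 alone they were 19, 4, 5 and 10, against 24.6%. The authors' pooled list gave 22 (4, 5 and 13) and the replicated list 21 (5, 5 and 11), against 26.4% and 25.3% of all coding genes. Exon bases alone gave 10, with 5 remaining genes, against 13.6% of all coding genes; Trim30d and Trim27 lost their calls, and Trim30c was the cluster gene marked. Leaving out bases shared with another coding gene gave 6 of 65, against 7.98% of all coding genes. Trim14 was gained, and 1 remaining gene (Trim27) was left, because Trim65 then lies below the limit. Unique words, chosen after seeing the data, gave 2 in the cluster and 7 in all, with Trim56 lost and Trim30a and Trim14 gained. The share of all coding genes was not computed for unique words. Widening the cluster to all Trim genes between 95 and 110 Mb gave 2 of 14. In each setting run on both, the share marked was higher in the 16 interferon-induced genes as a pool than in the remaining ones. It did not always hold for each part of the pool. At 50% the cluster had 0 of 10, and at a −log10 q of at least 5 the other interferon-induced genes had 0 of 6. The remaining genes had 0 of 52 in both settings. On exon bases the cluster had 1 of 10 against 5 of 52. Adding Trim69, Trim35 and Trim8 to the other interferon-induced genes gave 3 of 9. All settings draw on the same 2 replicates and are not independent. Depth is unknown and the replicates differ in peak number, so every count depends on the limit chosen. No paired analysis was possible because there is 1 group.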
